A study of Mus musculus with 9 samples.

Results

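Cap1, Cap2, Cfl1, Cfl2, Limk1, Limk2, Ssh1, Pfn1, Pfn2 and Rac1 are 10 genes whose proteins build up or take apart the actin filaments of dendritic spines. They were chosen by gene symbol from the 24532 genes listed for each mouse, and all 10 were found. The choice was made with earlier results of these mice in view, and the FPKM of the 3 groups belongs to what was known. FPKM counts the fragments of a gene scaled by the length of its transcripts and by the depth of the library. The values of these genes and their differences are therefore given as a description. The calls, intervals and alternative settings below apply a criterion to values that were already in view, and are no independent support for a difference. All 10 genes averaged at least 30 reads per mouse and were thus among the 14370 genes carried into the fit across all genes.

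RNA came from the prefrontal cortex of 9 C57BL/6 mice labelled as 11-week-old, with 3 mice and 3 libraries in each group. The CT mice were wild type and not restrained, and like the others had no food or water in the hours of restraint. The WT_ST mice were wild type and were restrained for 6 hours a day over 3 weeks, and the KO_ST mice were Fkbp5-/- and went through the same restraint. All mice were bred from heterozygous pairs on a backcrossed C57BL/6J background, and the methods describe male mice, at a younger age than the labels. The Fkbp5 allele is a knock-out present in the whole body, so that its effect is not limited to the cortex. An unstressed Fkbp5-/- group was not analysed here, so KO_ST against CT differs in both stress and genotype.

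Between 43778471 and 61150128 reads were counted on genes per mouse, and each library differed from every other by more than sampling noise (chi-square per degree of freedom of at least 18.7, where counts of the same library would give about 1). Fkbp5 itself lay between 3.59 and 4.69 FPKM in KO_ST, between 6.46 and 7.61 in CT and between 9.47 and 10.2 in WT_ST, so that KO_ST was the lowest group, though 625 to 907 reads per mouse were counted on the gene there. Markers of excitatory and inhibitory neurons, astrocytes, oligodendrocytes, microglia and blood vessels were all detected in every mouse. The striatal marker Drd2 lay between 0.640 and 0.809 FPKM in CT, 0.818 and 2.28 in WT_ST and 0.883 and 1.41 in KO_ST. For this gene the CT mice were below all others. Of 5 striatal markers, 2 were higher in WT_ST than in CT without overlap, and 1 in KO_ST. In KO_ST against CT, 1 of the 5 had a lower mean.

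Actin filaments grow at their barbed end and are severed and stripped of subunits toward the pointed end, and the balance of both sets the size and shape of a spine. Cofilin severs filaments. LIM kinases switch it off by phosphorylation and the slingshot phosphatases switch it on again, while Rac1, a small GTPase, stimulates the LIM kinases through p21-activated kinases. Cyclase-associated proteins help cofilin take filaments apart and recharge the released actin monomers, and profilins bring those monomers to growing ends. In cortical pyramidal neurons, chronic stress and glucocorticoids are known to remodel spines.

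Levels of the 10 genes spanned a wide range, which FPKM allows to be compared between genes because it is scaled by length. Cfl1 was the most abundant, at a mean of 568 FPKM over the 9 mice, and was higher than 99.7% of all tested genes. Pfn2 followed at 278 FPKM, Rac1 at 138 and Pfn1 at 107, and none of these 4 genes overlapped its neighbour in this order in any mouse. Cap2 averaged 87.1 FPKM and Cap1 78.2, with ranges that overlapped each other. Limk2 at 24.6 FPKM, Limk1 at 20.7 and Cfl2 at 16.8 also overlapped their neighbours. Ssh1 was the least abundant, with a mean of 3.18 FPKM and between 375 and 679 reads per mouse. The highest mouse exceeded the lowest by 2.04-fold for Cap1, by 2.0-fold for Limk1, by 1.57-fold for Ssh1 and by at most 1.28-fold for each of the other 7 genes.

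Limk1 and Cap1 were the 2 genes that met the criterion for a differentially expressed gene (DEG) in any comparison, an unadjusted p under 0.05 with a fold change above 1.2 in limma's fit across all genes. In WT_ST against CT, 2 of the 10 genes were called, where 2.47% of all tested genes were called. In KO_ST against CT, 1 of the 10 was called, with 3.56% called among all genes. In KO_ST against WT_ST, 1 of the 10 was called, and 2.0% of all genes. Since the rule drew on the same mice, nothing is read from these counts beside their background. An unadjusted p under 0.05 alone was reached by 3, 2 and 2 of the 10 genes in the 3 comparisons, and by 7.86%, 9.46% and 5.82% of all tested genes. At a Benjamini-Hochberg adjusted p under 0.05 over all genes, limma retained 1, 0 and 0 of the 10 genes, beside 0.0348%, 0.0626% and 0.153% of all. The gene retained was Cap1, which lost this threshold in 9 of 16 alternative settings, including the removal of any 1 WT_ST mouse. At this adjusted threshold edgeR on read counts also retained 1, 0 and 0 of the 10, beside 0.0418%, 0.0557% and 0.160%. DESeq2 retained 2, 1 and 0, beside 0.501%, 0.786% and 0.529%. The median log2 fold change of the 10 genes was 0.06, 0.08 and -0.02 in the 3 comparisons, against 0.0034, 0.0024 and -0.0015 for all tested genes. Each group of mice serves in 2 of these comparisons, so the comparisons are not independent.

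**Figure D1:**
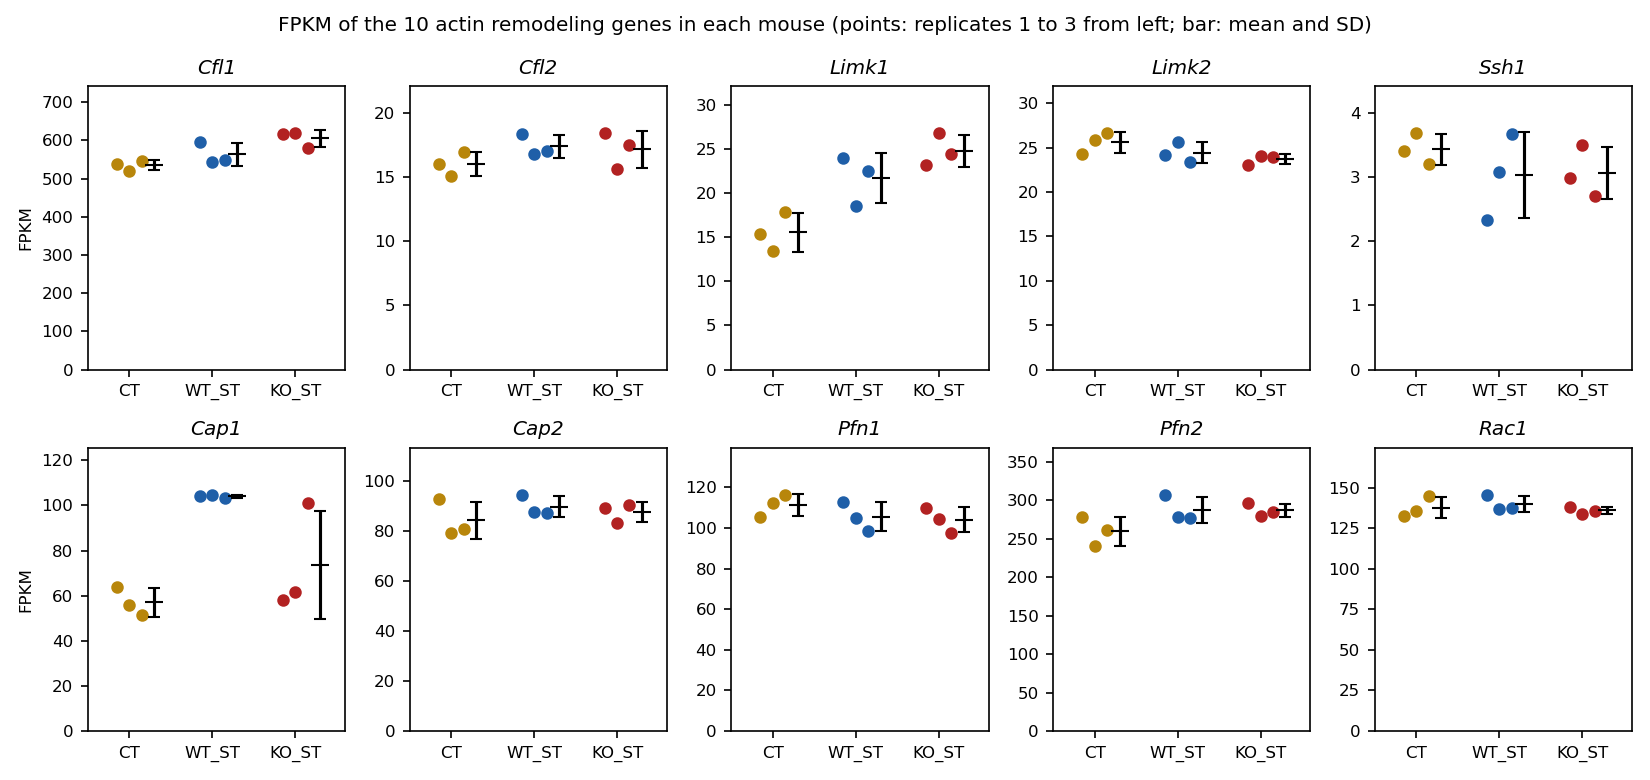
FPKM (vertical axis, from 0) of each of the 10 genes in the CT, WT_ST and KO_ST mice. Points are single mice and bars the mean and SD of 3 mice. Limk1 is higher in every stressed mouse than in every CT mouse, and Cap1 stands near 100 FPKM in the WT_ST mice and in 1 KO_ST mouse.

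Limk1 encodes 1 of the 2 LIM kinases that phosphorylate cofilin. It lies on the minus strand of chromosome 5 from 134656039 to 134689859 in GRCm38.p6. In the CT mice, its FPKM was 15.4, 13.4 and 17.8. In WT_ST it was 24.0, 18.5 and 22.5, and in KO_ST 23.1, 26.7 and 24.4. Every stressed mouse, of either genotype, was thus above every CT mouse, while WT_ST and KO_ST overlapped. On the quantile-normalized log2(FPKM+1) scale, Limk1 was 0.46 higher in WT_ST than in CT (standard error 0.119), or 1.38-fold with a 95% interval of 1.13 to 1.67. KO_ST exceeded CT by 0.67 on the log2 scale (standard error 0.103), or 1.59-fold with an interval of 1.34 to 1.88. Between KO_ST and WT_ST the difference was 0.20 (standard error 0.0974), and its interval of 0.983- to 1.35-fold included no change. Limk1 met the DEG criterion against CT in all 16 alternative settings for each stressed group, at log2 fold changes of 0.37 to 0.56 for WT_ST and 0.57 to 0.76 for KO_ST.

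Limk2, the second LIM kinase, did not follow Limk1. Its FPKM was 24.3, 25.9 and 26.6 in CT, 24.2, 25.7 and 23.4 in WT_ST and 23.1, 24.0 and 24.0 in KO_ST. The KO_ST mice lay just below the CT mice without overlap, at a log2 fold change of -0.10 (standard error 0.0486), and neither stressed group was called. The ratio of Limk1 to Limk2 within each mouse was 0.633, 0.517 and 0.668 in CT, 0.992, 0.720 and 0.960 in WT_ST and 1.0, 1.11 and 1.02 in KO_ST. Limk2 thus exceeded Limk1 in all CT and WT_ST mice, and the 3 KO_ST mice held slightly more Limk1 than Limk2.

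Ssh1, the slingshot phosphatase that reverses the LIM kinase reaction, was measured at 3.41, 3.69 and 3.20 FPKM in CT, 2.34, 3.09 and 3.67 in WT_ST and 2.99, 3.51 and 2.70 in KO_ST. All 3 groups overlapped. Its log2 fold change was -0.12 in WT_ST against CT (standard error 0.119), and the interval of 0.756- to 1.11-fold leaves room for a change that these 3 mice per group could not resolve. The ratio of Limk1 to Ssh1 was 3.63 to 5.55 in the CT mice, 5.99 to 10.2 in the WT_ST mice and 7.62 to 9.03 in the KO_ST mice, without overlap between CT and either stressed group. Limk1 on its own already separated these groups.

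Cap1 encodes cyclase-associated protein 1, which speeds up the turnover of cofilin-bound actin. It lies on the minus strand of chromosome 4 from 122859048 to 122886076. Its FPKM was 64.0, 56.0 and 51.3 in CT and 104, 105 and 103.3 in WT_ST. In KO_ST it was 57.9, 61.4 and 100.9. The WT_ST mice were thus nearly identical and far above the CT mice, and the KO_ST mice were divided, with replicates 1 and 2 in the range of CT and replicate 3 near WT_ST. Over the 9 mice, 5 lay between 51.3 and 64.0 FPKM and the other 4 between 100.9 and 105, with none in between. A gap this wide in log2 FPKM (0.66, with at least 2 mice on each side) was found in 282 of 14338 tested genes with reads in every mouse, or 1.97%.

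Cap1 was 0.86 higher in WT_ST than in CT on the log2 scale (standard error 0.0845), or 1.82-fold with a 95% interval of 1.58 to 2.08. In KO_ST against WT_ST its log2 fold change was -0.54 (standard error 0.190), a call that was lost in 7 of 16 alternative settings. In KO_ST against CT its log2 fold change of 0.32 (standard error 0.205) rested on KO_ST replicate 3. Without that mouse it was 0.07 against CT and -0.79 against WT_ST. Read counts showed the same split: 7065 to 11044 reads in CT, 12913 to 14472 in WT_ST, and 7136, 7944 and 14579 in KO_ST. The length by which reads were converted to FPKM was the same in all mice to within 1.01-fold for Cap1, so that the split was already present in the reads.

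Cap2, the paralog of Cap1, showed no such split. It was measured at 92.7, 79.0 and 80.7 FPKM in CT, 94.4, 87.4 and 87.0 in WT_ST and 89.2, 83.0 and 90.1 in KO_ST. The groups overlapped, and log2 fold changes lay between -0.02 and 0.08. Cap2 exceeded Cap1 by 1.41- to 1.57-fold in the CT mice and by 1.54- and 1.35-fold in KO_ST replicates 1 and 2. In the WT_ST mice and KO_ST replicate 3 the ratio was 0.834 to 0.906, with more Cap1 than Cap2.

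**Figure D2:**
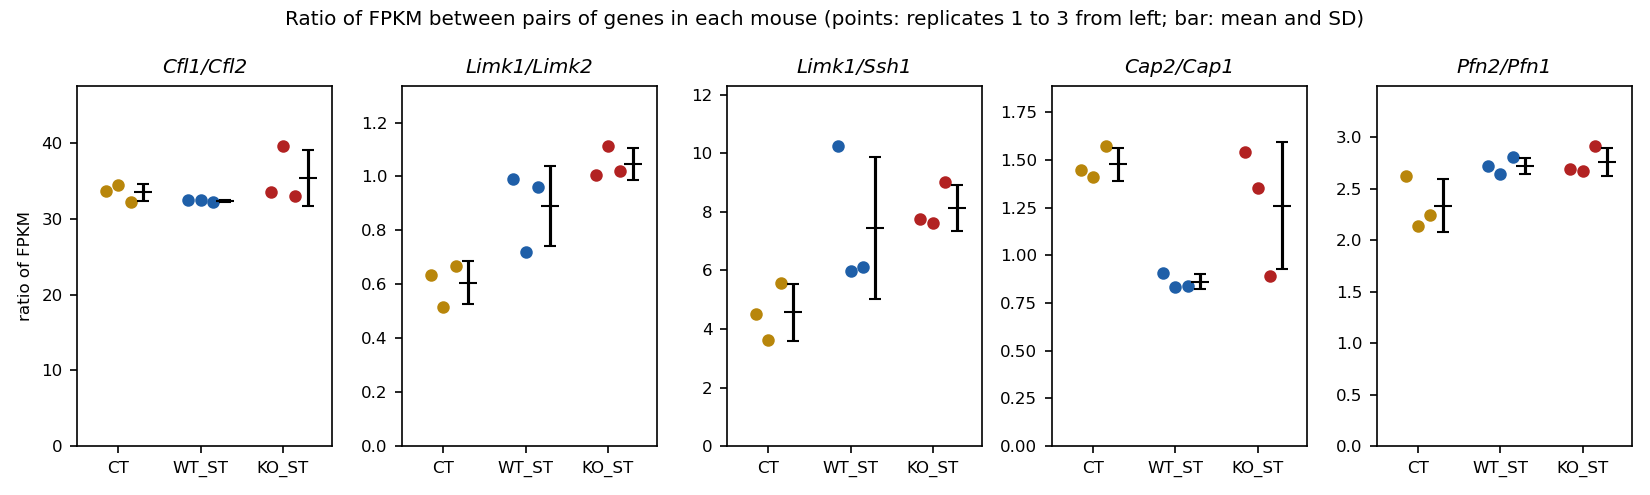
Ratio of FPKM (vertical axis, from 0) between pairs of genes within each mouse, by group. Points are single mice and bars the mean and SD of 3 mice. Limk1/Limk2 is at most 0.668 in CT and at least 1.0 in KO_ST, and Cap2/Cap1 lies below 1 in the 3 WT_ST mice and 1 KO_ST mouse.

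Cfl1, non-muscle cofilin, is the main substrate of the LIM kinases in neurons. It was measured at 539, 521 and 547 FPKM in CT, 597, 544 and 548 in WT_ST and 617, 618 and 579 in KO_ST. The KO_ST mice were above all CT mice, and overlapped WT_ST through replicate 1 of that group. The log2 fold change was 0.16 in KO_ST against CT (standard error 0.0412, or 1.12-fold with an interval of 1.04 to 1.19) and 0.11 in KO_ST against WT_ST (standard error 0.0301), both below the fold change asked of a DEG. WT_ST against CT gave 0.05 (standard error 0.0365).

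Cfl2, the muscle cofilin, was far less abundant, and Cfl1 exceeded it 32.2- to 39.7-fold in the 9 mice. It lay at 16.0, 15.1 and 17.0 FPKM in CT, 18.4, 16.8 and 17.0 in WT_ST and 18.4, 15.6 and 17.5 in KO_ST, with overlap between all groups. No comparison of Cfl2 had a log2 fold change above 0.12 in size.

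Profilin 2, the main profilin of neurons, was measured at 278, 240.1 and 261 FPKM in CT, 307, 278 and 277 in WT_ST and 296, 279 and 285 in KO_ST. All KO_ST mice were above the CT mice by a small margin, and WT_ST overlapped CT. Its log2 fold change against CT was 0.16 in WT_ST (standard error 0.0661) and 0.13 in KO_ST (standard error 0.0696). Profilin 1, which is expressed in most cell types, went slightly the other way without separating the groups, at 106, 112 and 116 FPKM in CT, 113, 105 and 98.8 in WT_ST and 110, 105 and 97.6 in KO_ST. The ratio of Pfn2 to Pfn1 was 2.14 to 2.63 in CT, 2.65 to 2.81 in WT_ST and 2.67 to 2.92 in KO_ST, so that every stressed mouse was above every CT mouse, though by a narrow margin. The share of all gene pairs whose ratio separates the mice in this way was not computed.

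Rac1 was the steadiest of the 10 genes. It was measured at 133, 136 and 145 FPKM in CT, 146, 137 and 138 in WT_ST and 138, 134 and 136 in KO_ST. All groups overlapped. The 95% intervals of its 3 comparisons lay between 0.925- and 1.08-fold, so a change of 1.2-fold in either direction was outside each of them.

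**Figure D3:**
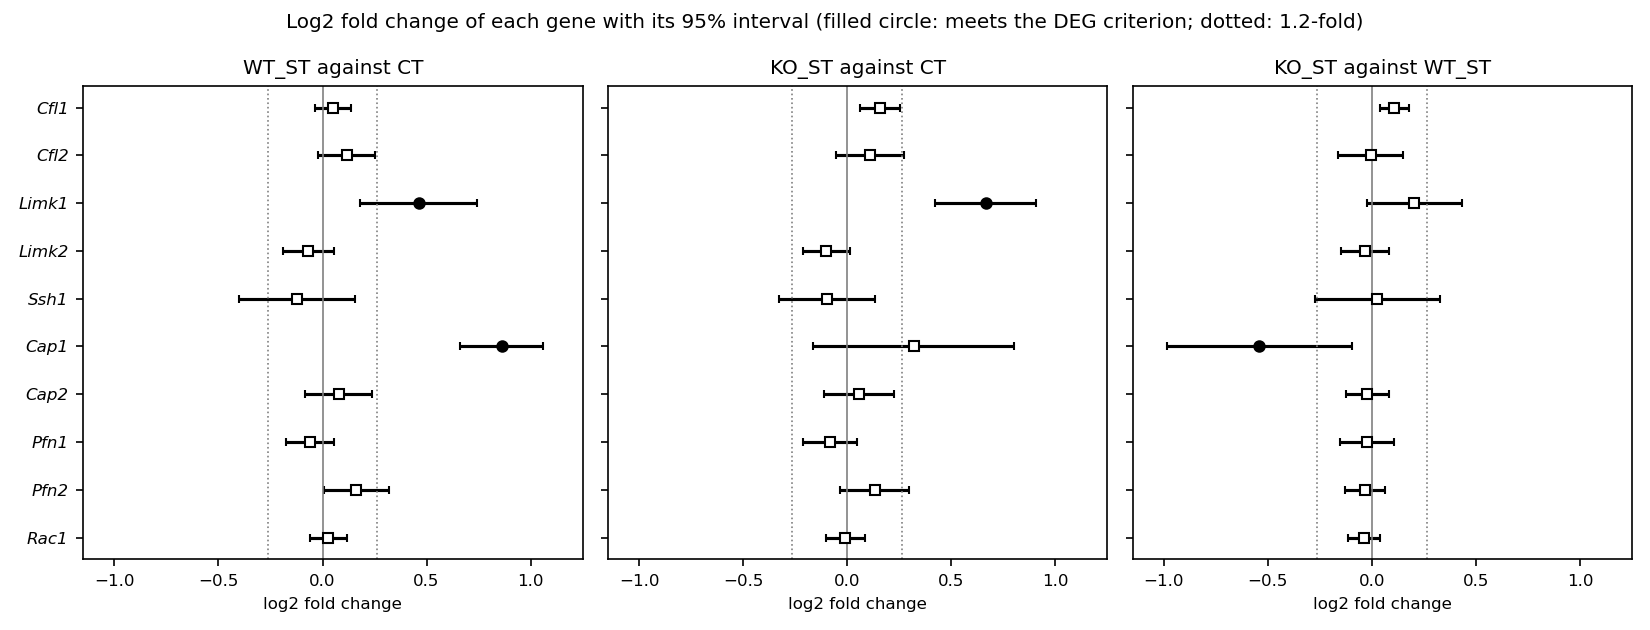
Log2 fold change (horizontal axis, quantile-normalized log2(FPKM+1)) of each gene in the 3 comparisons, with its 95% interval from limma's fit. Filled circles met the DEG criterion and dotted lines mark 1.2-fold. Limk1 and Cap1 stand apart from the other 8 genes, whose log2 fold changes lie between -0.12 and 0.16.

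Groups that did not overlap at all in FPKM were found for 2 of the 10 genes in WT_ST against CT (Limk1 and Cap1), beside 14.0% of all tested genes. In KO_ST against CT these were Cfl1, Limk1, Limk2 and Pfn2, or 4 of 10 beside 16.5%. In KO_ST against WT_ST there was 1, Cap1, beside 11.1%.

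The sequence upstream of the start of 3 genes is shown because Limk1 and Cap1 were the genes called and Cfl1 encodes the target of the pathway. Each run holds the 250 bases before a RefSeq start, 5′ to 3′ on the strand of the gene, from RefSeq on GRCm38.p6. RefSeq gives 2 such windows for Limk1, and the more upstream is shown, which lies before the start of a transcript that begins inside the span of the gene. Capitals mark matches to GGGCGG, the GC box, and to CCAAT, on either strand.
Limk1, chr5:134688591-134688840, minus strand: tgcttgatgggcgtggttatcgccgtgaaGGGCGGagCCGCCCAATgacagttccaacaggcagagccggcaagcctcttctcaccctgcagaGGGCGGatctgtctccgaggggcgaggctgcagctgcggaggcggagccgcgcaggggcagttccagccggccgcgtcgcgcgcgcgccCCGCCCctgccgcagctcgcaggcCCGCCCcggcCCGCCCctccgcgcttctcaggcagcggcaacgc
Cap1, chr4:122886077-122886326, minus strand: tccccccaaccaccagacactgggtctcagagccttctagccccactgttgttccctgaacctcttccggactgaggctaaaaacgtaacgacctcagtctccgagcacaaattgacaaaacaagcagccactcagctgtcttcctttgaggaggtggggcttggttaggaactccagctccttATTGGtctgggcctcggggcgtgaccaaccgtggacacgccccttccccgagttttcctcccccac
Cfl1, chr19:5490205-5490454, plus strand: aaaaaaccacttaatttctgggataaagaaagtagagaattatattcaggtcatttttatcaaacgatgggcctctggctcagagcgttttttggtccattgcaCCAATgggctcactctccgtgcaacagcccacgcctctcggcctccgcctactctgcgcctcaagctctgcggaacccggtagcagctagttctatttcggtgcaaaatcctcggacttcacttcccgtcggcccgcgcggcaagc

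The Limk1 window shown held 73.6% G or C and 6 GC boxes, 1 of which overlapped a CCAAT box, while the other Limk1 window held 57.2%, 0 GC boxes and 1 CCAAT box. Cap1 and Cfl1 held 57.2% and 52.0% G or C and 1 CCAAT box each, at positions -66 and -146 counted back from the start. Over the 12 RefSeq promoters matched for 9 of the 10 genes, all but Rac1, the GC box was found in 7 and the CCAAT box in 5, while 32.7% and 33.8% of all 32851 promoters held them. The 7 include 2 Limk2 windows whose bases after the start did not match the beginning of a GENCODE coding transcript of that gene. The half-site of the glucocorticoid receptor (AGAACA), the cAMP response element (TGACGTCA) and the CArG box, the site of serum response factor, were in 0 of these 12, against 16.1%, 1.55% and 1.47% of all promoters. These matches describe letters in a window of 250 bases and do not show binding.

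The 10 genes lie on chromosomes 3, 4, 5, 11, 12, 13 and 19, with Limk1, Ssh1 and Rac1 all on chromosome 5, and none on chromosome 17 with Fkbp5. Among GENCODE transcripts, 1 pseudogene, Gm6180, shares 498 bases with Cfl1 at 98.8% identity, so that Cfl1 is uncertain by any reads the counting could have split between both. No other copy of at least 200 bases at 95% identity or more was found for Cap1, Limk1 or the remaining genes, apart from antisense neighbours. Exons on the opposite strand were shared with Daglb over 2309 bases of Rac1, with Snx32 over 468 bases of Cfl1, with Ppt1 over 129 bases of Cap1, and with the noncoding Gm35110 over 120 bases of Cap2 and 1700081N11Rik over 81 bases of Cfl2. The library kit keeps strand, but the strand setting of the counting was not given in the sources used here.

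Over the 9 mice, the most alike pairs among the 10 genes were Cap2 with Pfn2 (Pearson r = 0.85) and Cfl1 with Limk1 (r = 0.84), and the most opposed was Limk2 with Pfn2 (r = -0.78). These correlations are descriptions over 9 libraries that differ in group, depth and marker levels. The gene most like Limk1 outside the list was Tti1 (r = 0.97), which lay between 5.57 and 6.18 FPKM in CT, between 6.50 and 6.71 in WT_ST and between 6.68 and 7.03 in KO_ST. For Cap1 it was Ppp2r3c (r = 0.95), which reached 8.94 to 9.19 FPKM in WT_ST, 9.04 in replicate 3 of KO_ST, and 8.47 or less elsewhere. For Cfl1 it was Cd6 (r = 0.96), a low gene at 1.81 to 2.11 FPKM in KO_ST and at most 1.54 elsewhere. Each nearest gene is the highest value over all tested genes outside the list, and others came close. An r above 0.9 was reached by 18 genes for Limk1, 13 for Cap1 and 12 for Cfl1, and by 3 (Rac1) to 95 (Ssh1) across the 10. Peak1 was most like Ssh1 (r = 0.98), Tmem41b most like Pfn2 (r = 0.98), Zc2hc1a most like Cfl2 (r = 0.96), Cdk5r1 most like Cap2 (r = 0.96), Cdk9 most like Limk2 (r = 0.95), Ell most like Pfn1 (r = 0.95) and Gtf3a most like Rac1 (r = 0.93).

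The actin pathway around these 10 genes was examined with 103 other genes in 7 lists, all of which averaged at least 30 reads. Of the 103 genes, 1 was called in WT_ST against CT, 0 in KO_ST against CT and 1 in KO_ST against WT_ST, beside 2.47%, 3.56% and 2.0% of all tested genes. In limma, 7, 7 and 2 of them had an unadjusted p under 0.05, and 0 passed the adjusted threshold in any comparison. edgeR called 3, 0 and 0 of the 103 genes, beside 3.72%, 4.63% and 2.96% of all, and 0 passed its adjusted threshold. DESeq2 called 3, 2 and 0, beside 3.84%, 5.14% and 2.85% of all, and 1 passed its adjusted threshold in KO_ST against CT. Their median log2 fold changes were 0.0087, -0.0069 and -0.0086, and 97.1%, 93.2% and 98.1% of them changed by less than 0.25 on the log2 scale, against 94.7%, 93.0% and 95.8% of all tested genes.

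Calls within each list are those of limma unless another tool is named. Among actins and monomer binders, 0 of 7 genes were called, and 0 had an unadjusted p under 0.05. Beta-actin (Actb), the bulk of spine actin together with gamma-actin, was measured at 516, 499 and 543 FPKM in CT, 557, 518 and 528 in WT_ST and 517, 564 and 529 in KO_ST. Actg1 lay at 518, 530.0 and 542 FPKM in CT, 583, 537 and 549 in WT_ST and 558, 620 and 562 in KO_ST. Both actins were thus close to Cfl1 in level. Actb overlapped between all groups and Actg1 was higher in KO_ST than in CT without overlap, at a log2 fold change of 0.11 (standard error 0.0492, adjusted p = 0.545 from limma).

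Of 9 genes for actin depolymerizing factor, severing proteins and cofilin cofactors, 0 were called and 0 had an unadjusted p under 0.05, with medians between -0.0063 and 0.03. The 13 further kinases and phosphatases of cofilin and their activators also gave 0 calls, with 0, 1 and 0 genes at an unadjusted p under 0.05, and their medians were -0.03, -0.03 and -0.02. Of 22 genes for the WAVE complex and Arp2/3, which branches filaments, limma called 1 in 1 comparison, and DESeq2 called another, Arpc1b, in KO_ST against CT. Of 21 genes for capping and side binding, limma called 0, with 2, 2 and 0 at an unadjusted p under 0.05, while edgeR and DESeq2 each called Eps8 in WT_ST against CT. Both genes are named after their calls were seen. Among the actins and monomer binders, the severing proteins and the kinases and phosphatases of cofilin, edgeR and DESeq2 also called 0 genes.

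Vasp, which elongates filaments at the barbed end, was the gene called among 12 formins, Ena/VASP proteins and other elongators. It was measured at 3.29, 6.13 and 4.17 FPKM in CT, 2.54, 2.52 and 3.09 in WT_ST and 2.88, 3.24 and 3.51 in KO_ST. The WT_ST mice were all below the CT mice, whose own values differed widely. WT_ST differed from CT by -0.51 on the log2 scale (standard error 0.181), with an adjusted p of 0.635 in limma, and the call was lost without WT_ST replicate 1 or 2. KO_ST differed from CT by -0.33 (standard error 0.179) with overlap, and was not called. DESeq2 called Vasp in KO_ST against CT, as did limma without CT replicate 1.

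Abi2, a subunit of the WAVE complex, was the gene called in KO_ST against WT_ST, at a log2 fold change of 1.06 (standard error 0.401, adjusted p = 0.830 from limma). It is named after its values were seen, and the call was kept in 5 of 16 alternative settings. Its FPKM was 41.2, 41.9 and 12.6 in CT, 41.0, 11.6 and 14.2 in WT_ST and 42.3, 38.4 and 41.3 in KO_ST. KO_ST and WT_ST overlapped through WT_ST replicate 1. Like Cap1, Abi2 lay at either of 2 separate levels, but the low mice were CT replicate 3 and WT_ST replicates 2 and 3, a different split of the mice from that of Cap1.

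**Figure D4:**
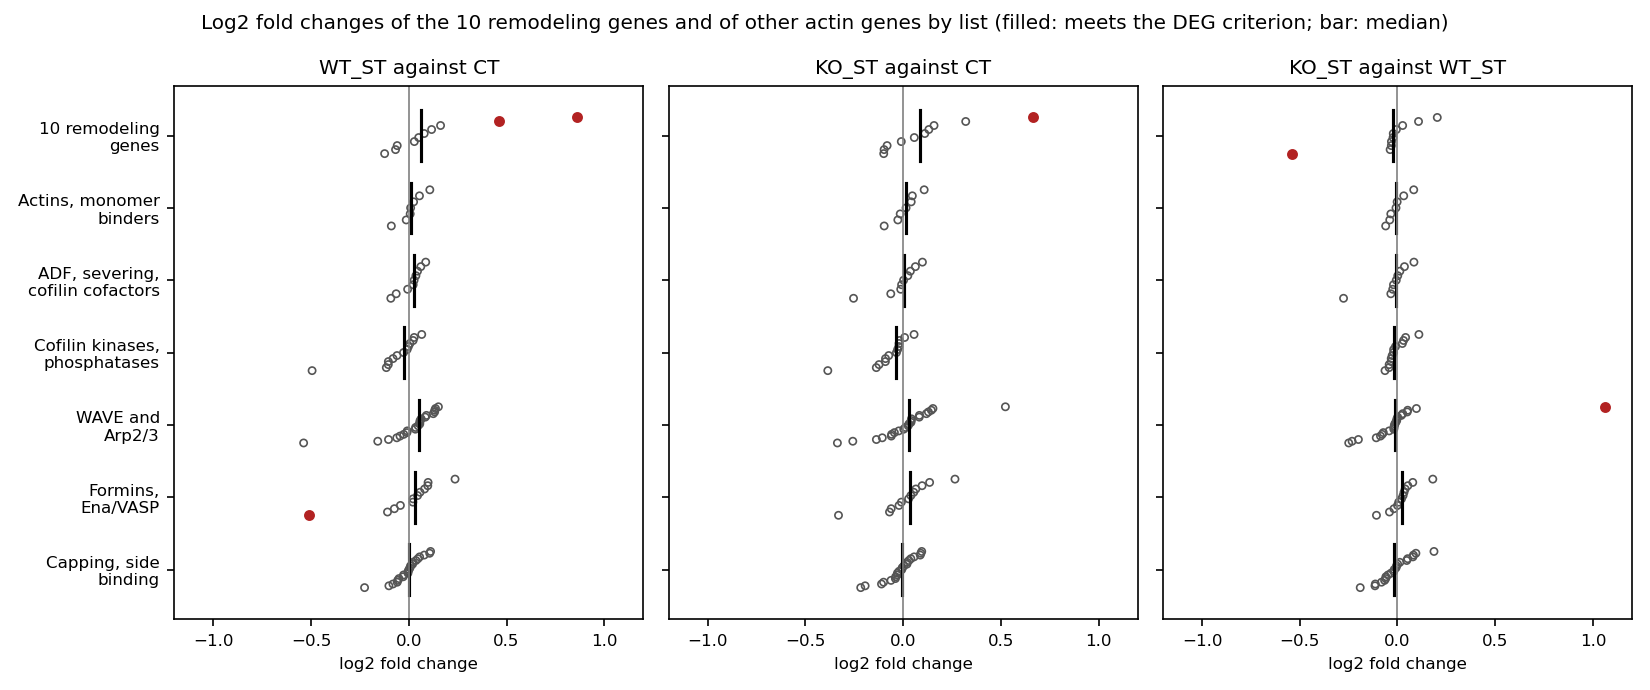
Log2 fold changes (horizontal axis) of the 10 genes and of other actin genes, in 6 of the 7 lists, for each comparison. Each circle is a gene, filled where it met the DEG criterion, and vertical bars are medians. The calls are Limk1 and Cap1 in the top line, Vasp in WT_ST against CT and Abi2 in KO_ST against WT_ST.

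Cell-type markers moved with the groups beside these results. All 5 microglial markers were lower and met the DEG criterion in WT_ST against CT and in KO_ST against CT. Their summed FPKM was 92.0 to 114 in CT, 71.9 to 81.1 in WT_ST and 36.6 to 83.7 in KO_ST, and none was at 0. Of 5 striatal markers, 3 were called higher in WT_ST and 1 in KO_ST against CT, with sums of 37.0 to 46.9 in CT, 45.5 to 59.4 in WT_ST and 39.6 to 47.4 in KO_ST. The 5 neuronal markers gave 0 calls in each comparison, at sums of 2153 to 2562 in CT, 2615 to 2859 in WT_ST and 2643 to 2833 in KO_ST. The stressed mice were above the CT mice in this sum, in which Snap25 is the largest of the 5, while 1 of the 5 markers on its own did not overlap in WT_ST against CT and 3 in KO_ST against CT. Astrocyte markers summed to 325 to 359 in CT, 297 to 317 in WT_ST and 307 to 348 in KO_ST, and 1 of 5 was called lower, in WT_ST against CT. Blood vessel markers summed to 39.3 to 45.9, 31.7 to 39.9 and 29.7 to 40.6 in the same order, with 1 of 5 called lower in each stressed group against CT. Oligodendrocyte sums were 413 to 789, 434 to 696 and 469 to 623, and sums of 5 blood markers, 2 of which were at 0 in some mice, were 82.8 to 775, 85.8 to 499 and 110.0 to 274, with 0 calls in either list. In KO_ST against WT_ST, 1 microglial and 1 striatal marker were called lower and 0 in the other lists. The part of these shifts in the values of Limk1, Cap1 and the other genes was not tested. In tissue RNA, fewer cells of a type and less RNA per cell cannot be told apart.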

How the data were processed

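Libraries were made with a stranded mRNA kit and sequenced as paired-end reads. Per the study's methods and the submitters' processing notes, the authors aligned reads to GRCm38 (mm10) with HISAT2 2.1.0 and Bowtie2 2.3.4.1 and quantified them with StringTie 1.3.4d. The authors deposited unnormalized read counts and FPKM values for each gene and mouse. Here, log2(FPKM+1) was quantile normalized over the 9 mice, and genes averaging at least 30 reads were tested with limma 3.58.1 in R 4.3.3, using the 6 mice of each comparison. A pseudocount of 1 understates changes of low genes. Fold changes, standard errors and 95% intervals come from this fit. edgeR 4.0.16 and DESeq2 1.42.0 on the deposited read counts were alternatives, as were other pseudocounts, filters and normalizations and leaving out each mouse. The 3 fits of WT_ST against CT were tested on simulated data. Replicates are separate mice.

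The 10 genes, the pathway lists and the marker lists were chosen with earlier results of these data known. The 10 genes, Fkbp5, the actins, the nearest gene by correlation, copies, and called pathway genes without group overlap are named. Abi2, Arpc1b, Eps8, Synpo and the markers named fall outside this rule. Copies were searched with blastn at 95% identity over at least 200 bases of GENCODE M21 transcripts, and the genome was not searched. Positions and promoters come from RefSeq. Figures were drawn with matplotlib 3.10.9. The values of 1 of the 7 pathway lists are not reported here on their own.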

Additional observations from a re-analysis of the deposited data

How the results depend on the processing

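With 3 mice per group, the widest standard error among the 10 genes was 0.205, for Cap1 in KO_ST against CT. Of 480 values of the 10 genes under the alternatives, 472 stayed on the same side of the criterion, and none changed the direction of a called value. Those not called also stayed within the spread between mice. The other filters, the unmoderated test, the fit of all 9 mice and the replicate block cannot change a log2 fold change. Their values could only cross the criterion, so the 472 include values whose size was fixed in advance. The 7 lost calls all concerned Cap1 in KO_ST against WT_ST, and without WT_ST replicate 1 Limk1 was also called there (log2 fold change 0.27). The median of all genes stayed between -0.018 and 0.0051 on the log2 scale under every alternative. Cap1 in WT_ST against CT lost the adjusted threshold in 9 of 16 alternatives, the replicate block among them. The cause of this and of the changes below was not tested.

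Calls among the 10 genes stayed at 2 in WT_ST against CT and 1 in KO_ST against CT under every alternative. In KO_ST against WT_ST, where 1 was called, it was 0 without the filter on reads, with an unmoderated test and with DESeq2, and 0 to 2 with a mouse left out. It was 0 without WT_ST replicate 2 or 3 or KO_ST replicate 1 or 2.

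Calls among the 103 pathway genes in WT_ST against CT, 1 in the text, were 0 with an unmoderated test, 3 with edgeR under either scaling and 3 with DESeq2, and 1 to 2 with a mouse left out (2 without WT_ST replicate 2 or 3). Vasp was called in 4 of the 6 fits with a mouse left out. In KO_ST against CT, with 0 in the text, they were 1 without quantile normalization, 1 with all 9 mice in one fit and 2 with DESeq2, and 0 to 2 with a mouse left out (1 without CT replicate 1 and 2 without KO_ST replicate 1 or 3). In KO_ST against WT_ST, with 1 in the text, they were 0 without the filter, with an unmoderated test, with edgeR under either scaling, with DESeq2 and with all 9 mice in one fit, and 0 to 1 with a mouse left out (0 without WT_ST replicate 2 or 3 or KO_ST replicate 2). Abi2 was called in only 1 of these 6, without WT_ST replicate 1, and the calls without KO_ST replicate 1 and 3 were other genes, Synpo and Arpc1b.

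Calls among all genes, 355, 512 and 287, were 164, 248 and 138 with an unmoderated test. With a pseudocount of 0.1 they were 544 in WT_ST against CT and 445 in KO_ST against WT_ST. In WT_ST against CT they were 535 with edgeR under either scaling and 552 with DESeq2. With a mouse left out they were 277 to 544 in WT_ST against CT (544 without CT replicate 3) and 245 to 477 in KO_ST against WT_ST (477 without KO_ST replicate 3). In WT_ST against CT, 46.8% of the calls were higher, and 34.1% without quantile normalization, 33.1% with edgeR, 34.2% with DESeq2 and 59.4% without CT replicate 3. In KO_ST against CT it was 43.2%, 28.5% without quantile normalization, and 51.3% and 53.6% without CT replicates 1 and 3.

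Replicate numbers were shared by the groups. Same-numbered mice deviated together (correlation above 0.1) in 2 of 9 pairs, beside 6 of 18 pairs of different number. Of the 9 mice, 4 correlated best with a mouse of their own number. With the replicate number as a block, the pathway calls in KO_ST against CT were 2 in place of 0, and the calls among the 10 genes stayed at 2, 1 and 1.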
